A study of Mus musculus with 8 samples.

Results

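The subcortical maternal complex is a large protein assembly of the growing oocyte that lies beneath the oocyte membrane and is passed on to the embryo. It is built around NLRP5 (also called MATER), OOEP (FLOPED), TLE6 and KHDC3 (FILIA), with ZBED3 and the cytoplasmic lattice protein PADI6 as associated proteins. Embryos of females that lack one of these proteins typically arrest or develop poorly during the first cleavages, so the genes are called maternal-effect genes. *Npm2* encodes nucleoplasmin, a histone chaperone of the oocyte nucleus that is another maternal-effect protein and not a subunit of the complex. The 7 genes *Nlrp5*, *Ooep*, *Padi6*, *Tle6*, *Khdc3*, *Zbed3* and *Npm2* were chosen by symbol from the 45583 symbols of a table of read counts per gene, and all 7 were found and passed the filter on low counts.

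The libraries came from whole ovaries of juvenile female mice, 3 weeks old, on the C57/Bl6 background. Of these, 4 were from wild-type mice (WT 1118, 1119, 1120 and 1121) and 4 from mice labelled GOAT KO (1139, 1140, 1141 and 1146), bred as littermates, with 1 library per mouse and reads of 50 bases. GOAT, ghrelin-O-acyltransferase, is encoded by *Mboat4* and attaches the fatty acid to ghrelin, and the comparison asks how loss of the enzyme from every tissue bears on the ovary. The counts summed to between 16147216 and 19481798 per library. *Mboat4* had 1, 1, 1 and 3 counts in the WT libraries and 5, 7, 7 and 8 in the GOAT KO libraries. None of the 8 libraries had a read on a splice junction of *Mboat4*, and 135 of its 1836 exonic bases are shared with *Gm39158* on the opposite strand. The strand setting is not known, and whether these few counts come from the gene itself was not tested. They give no check of the genotype, and libraries are named by their labels throughout.

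The libraries labelled WT 1118 and GOAT KO 1139 stand apart from the rest, and WT 1120 from the others labelled WT. Reads across splice junctions were spread unevenly in the library labelled WT 1118: over 11922 junctions with reads in all libraries, its root mean square deviation from the mean of the 8 libraries was 0.558 on the log2 scale, compared to 0.198 to 0.287 in the others. The library labelled GOAT KO 1139 carried fat cell transcripts. The summed CPM of 6 adipose markers (counts scaled to 1000000 per library, after TMM scaling) was 15.04 to 31.8 in the libraries labelled WT and 21.1 to 613 in those labelled GOAT KO. The summed CPM of theca and steroidogenic markers was 3437 in WT 1120 and 2236 to 2754 in the others labelled WT. It was 2744 to 3401 in those labelled GOAT KO. Values without WT 1118 are therefore given with the genes. Values with 6 libraries, without WT 1120 and GOAT KO 1139, are given as well, because the study left out 1 library of each group. Its text does not name them, and this set was taken from earlier work on these data.

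The labelled tissue was checked against oocyte markers. *Gdf9*, an oocyte growth factor of the TGF-beta family, measured 304 ± 28.5 CPM (SD, n = 4) in the libraries labelled WT and 310 ± 20.8 in those labelled GOAT KO, *Bmp15*, its close relative, 152 ± 22.1 and 152 ± 6.24, *Zp3*, a zona pellucida protein, 174 ± 14.4 and 185 ± 14.01, and the germ cell helicase *Ddx4* 10.8 ± 1.51 and 12.4 ± 0.731. None of these 4 markers differed between the groups under the rule described next. In a whole ovary, fewer oocytes and less RNA per oocyte cannot be told apart.

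Genes were called different when edgeR's quasi-likelihood test gave an unadjusted p under 0.05 with a log2 fold change (GOAT KO minus WT) of over 0.5 in size, a rule taken from the study's methods. Of the 7 genes only *Khdc3* met it. Over all 16601 genes tested, 1.67% met the rule, 0.958% as higher in the libraries labelled GOAT KO. With a Benjamini-Hochberg adjusted p under 0.05 none of the 7 was called, and 0.0181% of all genes were. The unadjusted p alone was under 0.05 for 3 of the 7 (*Nlrp5*, *Padi6* and *Khdc3*), where 4.62% of all genes had such a p. The median log2 fold change of the 7 genes was 0.17, and that of all genes tested was 0.

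**Figure D1:**
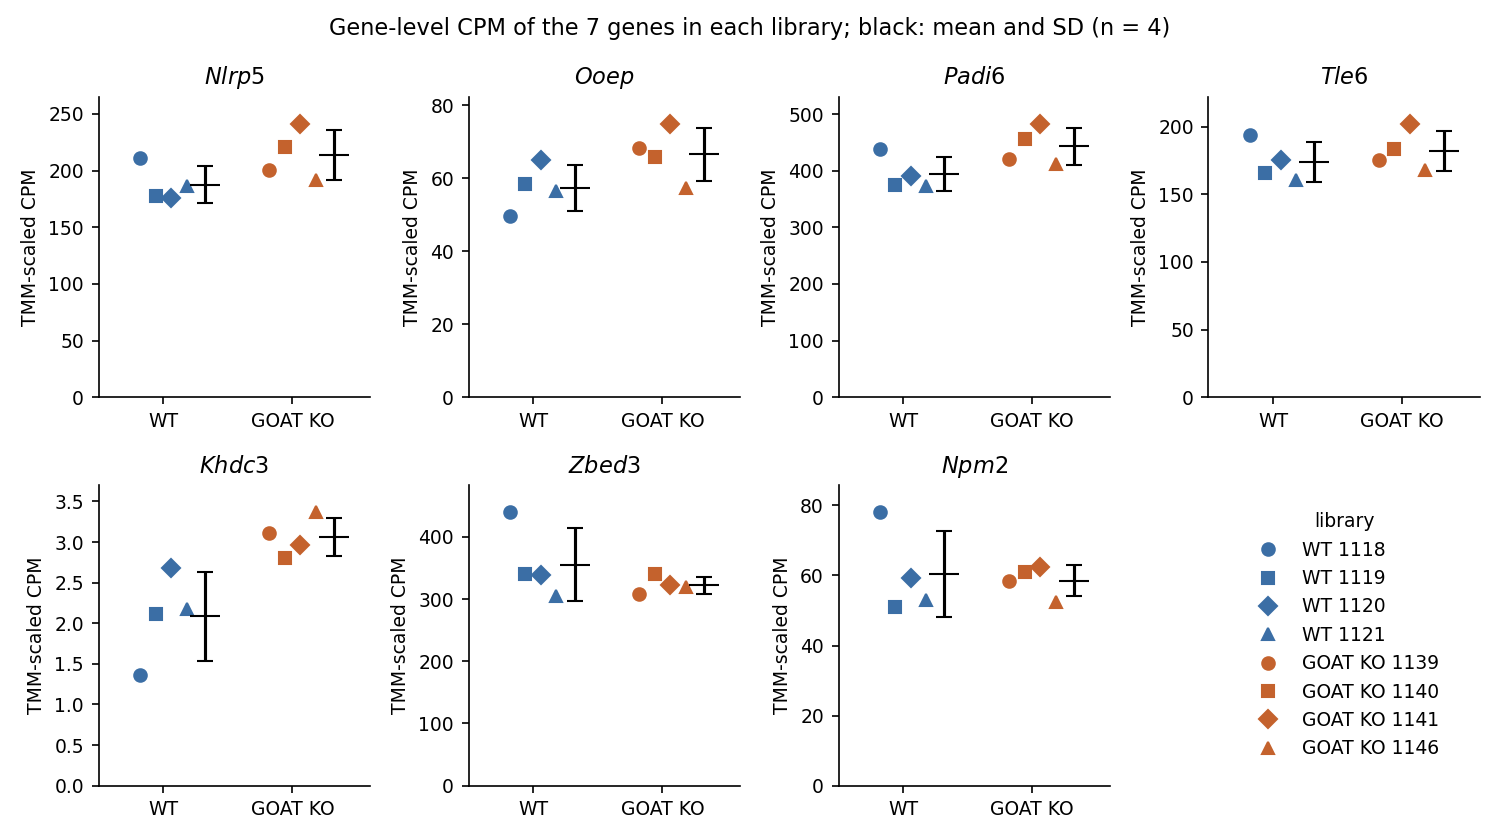
TMM-scaled CPM (vertical axis, from 0) of the 7 genes in each library, with the libraries labelled WT in blue and those labelled GOAT KO in orange, 1 marker shape per library, and the group mean ± SD (n = 4) in black. The groups are apart for *Khdc3* alone, WT 1118 is the highest library for *Zbed3* and *Npm2* and the lowest for *Ooep* and *Khdc3*, and GOAT KO 1141 is the highest for *Nlrp5*, *Ooep*, *Padi6* and *Tle6*.

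*Nlrp5* encodes the NACHT and leucine-rich repeat protein without which the complex does not form. It lies on chromosome 7 (GRCm38, chr7:23385889-23441922, plus strand). Its level was 211, 178, 176 and 186 CPM in WT 1118, 1119, 1120 and 1121, and 201, 221, 241 and 192 CPM in GOAT KO 1139, 1140, 1141 and 1146. The groups overlapped through WT 1118, which lay above 2 of the 4 libraries labelled GOAT KO. The difference amounted to a log2 fold change of 0.19 ± 0.08 (SE, n = 4 per group), with an unadjusted p of 0.0469 and an adjusted p of 0.983 in edgeR's quasi-likelihood test. An exact two-sided permutation test of the 8 values, which cannot give a p under 0.0286 with 4 against 4, gave p = 0.114. Without WT 1118 the log2 fold change was 0.25 (edgeR, unadjusted p = 0.0116), and with the 6 libraries it was 0.19 (unadjusted p = 0.0654). Leaving out WT 1119, 1120 or 1121 or GOAT KO 1140 or 1141 gave 0.12 to 0.18 (edgeR, unadjusted p = 0.0955 to 0.176).

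*Padi6*, a peptidylarginine deiminase family member needed for the cytoplasmic lattices of the oocyte, lies at chr4:140727355-140742643 on the minus strand. It measured 438, 376, 392 and 373 CPM in the 4 libraries labelled WT and 421, 457, 483 and 412 CPM in the 4 labelled GOAT KO. As for *Nlrp5*, WT 1118 was the only library labelled WT inside the range of the other group. The log2 fold change was 0.17 ± 0.07, with an unadjusted p of 0.0435 and an adjusted p of 0.983 (edgeR), and the exact permutation p was 0.0857. It was 0.22 without WT 1118 (edgeR, unadjusted p = 0.00781) and 0.19 with the 6 libraries (unadjusted p = 0.0448). Leaving out WT 1119, 1120 or 1121 or GOAT KO 1140 or 1141 gave 0.12 to 0.16 (edgeR, unadjusted p = 0.0679 to 0.151). The other peptidylarginine deiminase genes, *Padi1*, *Padi2*, *Padi3* and *Padi4*, were near the limit of detection. Of these 4, 1 passed the filter on low counts, *Padi2*, with 0.923 ± 0.295 and 1.01 ± 0.568 CPM, and it was not called.

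*Ooep*, which encodes a small RNA-binding-domain protein of the core, lies at chr9:78376109-78378725 on the minus strand. It measured 49.7, 58.3, 65.0 and 56.5 CPM in the libraries labelled WT and 68.3, 65.7, 74.9 and 57.2 CPM in those labelled GOAT KO. Here WT 1118 was the lowest of all 8 libraries, and GOAT KO 1146 lay among the libraries labelled WT. The log2 fold change was 0.21 ± 0.10, with an unadjusted p of 0.0518 in edgeR's test, 0.27 with an unadjusted p of 0.0231 with the 6 libraries, and 0.15 with an unadjusted p of 0.14 without WT 1118.

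*Tle6*, a co-repressor family member that binds the other core proteins, lies at chr10:81590904-81601073 on the minus strand. It measured 194, 165, 175 and 161 CPM in the libraries labelled WT and 175, 184, 202 and 168 CPM in those labelled GOAT KO. The ranges of the 2 groups overlapped over most of their span. The log2 fold change was 0.07 ± 0.08, with a 95% interval of -0.08 to 0.22 and an unadjusted p of 0.400 (edgeR), and it was 0.12 without WT 1118 and 0.09 with the 6 libraries.

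*Zbed3*, a zinc finger protein found at the oocyte cortex with the complex, and *Npm2* did not share the positive sign. *Zbed3* (chr13:95323612-95337841, plus strand) measured 440, 340, 339 and 305 CPM in the libraries labelled WT and 308, 341, 322 and 319 CPM in those labelled GOAT KO. Its log2 fold change was -0.14 ± 0.10 with an unadjusted p of 0.184 (edgeR). WT 1118 alone lay above every library labelled GOAT KO by a wide margin, and without it the log2 fold change was -0.02 with an unadjusted p of 0.705 (-0.14 with the 6 libraries). *Npm2* (chr14:70647302-70659244, minus strand, with 39 exonic bases shared with *Xpo7*) measured 78.02, 51.1, 59.4 and 53.0 CPM in the libraries labelled WT and 58.6, 60.9, 62.4 and 52.4 CPM in those labelled GOAT KO. Its log2 fold change was -0.04 ± 0.12 (edgeR, unadjusted p = 0.735), and without WT 1118 the sign turned, at 0.10, while it was -0.05 with the 6 libraries.

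**Figure D2:**
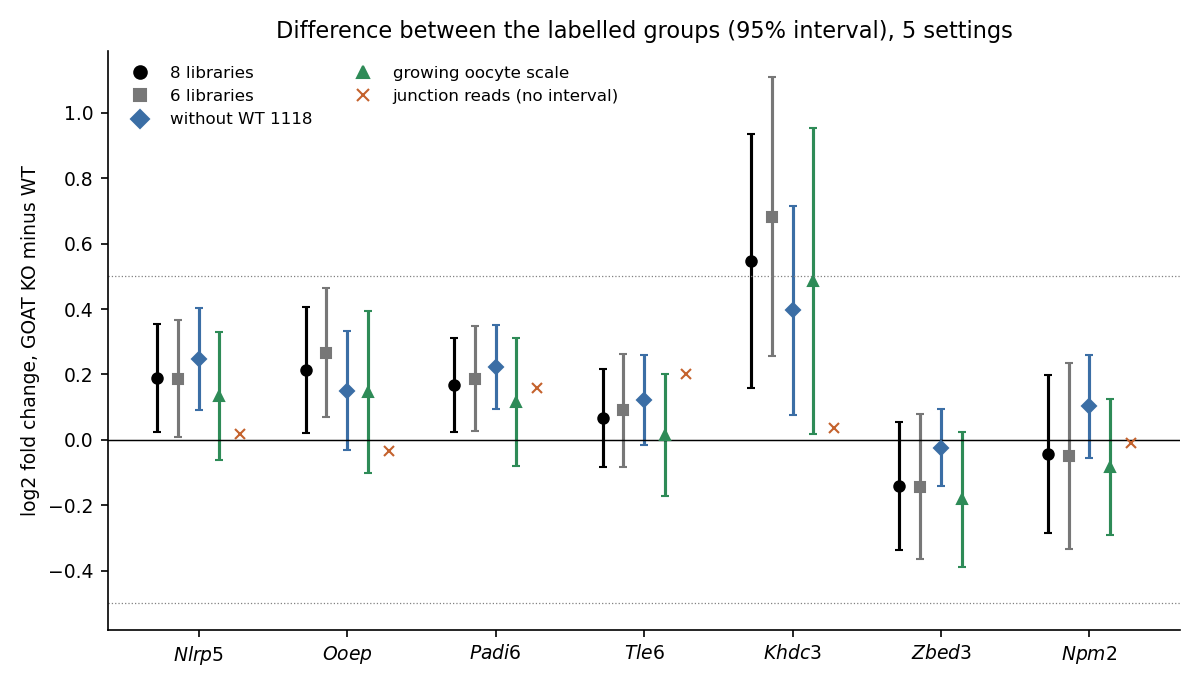
Log2 fold change (GOAT KO minus WT, vertical axis) of the 7 genes under 5 settings, with 95% intervals from the SE for gene counts and no interval for junction reads. Dotted lines mark the log2 threshold of 0.5, and *Khdc3* is past it with 8 and with 6 libraries, but lies at 0.40 without WT 1118, 0.49 on the scale of growing oocyte transcripts and 0.04 in junction reads. *Zbed3* has no junction that is listed in all 8 libraries and so no value for junction reads.

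*Khdc3* encodes a KH domain protein of the complex and lies at chr9:73101836-73104438 on the plus strand. Its level was 1.36, 2.11, 2.69 and 2.18 CPM in the libraries labelled WT, from 22, 38, 49 and 40 counts. In those labelled GOAT KO it was 3.11, 2.81, 2.97 and 3.37 CPM, from 52, 46, 58 and 58 counts. The groups did not overlap, with every library labelled GOAT KO above every library labelled WT, a pattern that 1.64% of all genes tested showed in this direction. The log2 fold change was 0.55 ± 0.20, with an unadjusted p of 0.0191 and an adjusted p of 0.983 (edgeR), and the exact permutation p was 0.0286, the smallest this design can give. The call was lost without WT 1118 (0.40, unadjusted p = 0.0368 in edgeR's test) and without GOAT KO 1146 (0.50, unadjusted p = 0.0501). With the 6 libraries it held at 0.68 with an unadjusted p of 0.00989 (edgeR), where 2.39% of 16641 genes were called.

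These counts hold only part of the reads that lie within *Khdc3*. The splice junctions inside the gene, counted separately by the aligner, carried 100, 94, 86 and 81 reads in the libraries labelled WT and 97, 98, 102 and 79 in those labelled GOAT KO, more than the whole gene count in each library. On the 2 annotated junctions that held reads, the 8 libraries together had 727 reads against 363 gene counts, or 0.499 counts per junction read. The other members with at least 100 junction reads had 2.11 (*Npm2*) to 6.70 (*Ooep*) counts per junction read, and the median over 9652 genes with at least 100 junction reads was 6.29. Only 2.42% of those genes were at or below *Khdc3*. *Zbed3*, with 0 to 25 junction reads per library, fell under the cut of 100 and lay far to the other side. It had 573 counts per read over all its junctions. In the annotation, 790 of the 2050 exonic bases of *Khdc3* (38.5%) are shared with *Gm20509*, a readthrough gene on the same strand that was listed at 0 counts in all 8 libraries. Both read-bearing introns belong to the 2 genes alike. The 4 introns of *Gm20509* alone and the 3 of *Khdc3* alone had 0 junction reads, so these reads do not tell the 2 genes apart. How reads that fall on both genes were counted is not given in the sources used here.

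**Figure D3:**
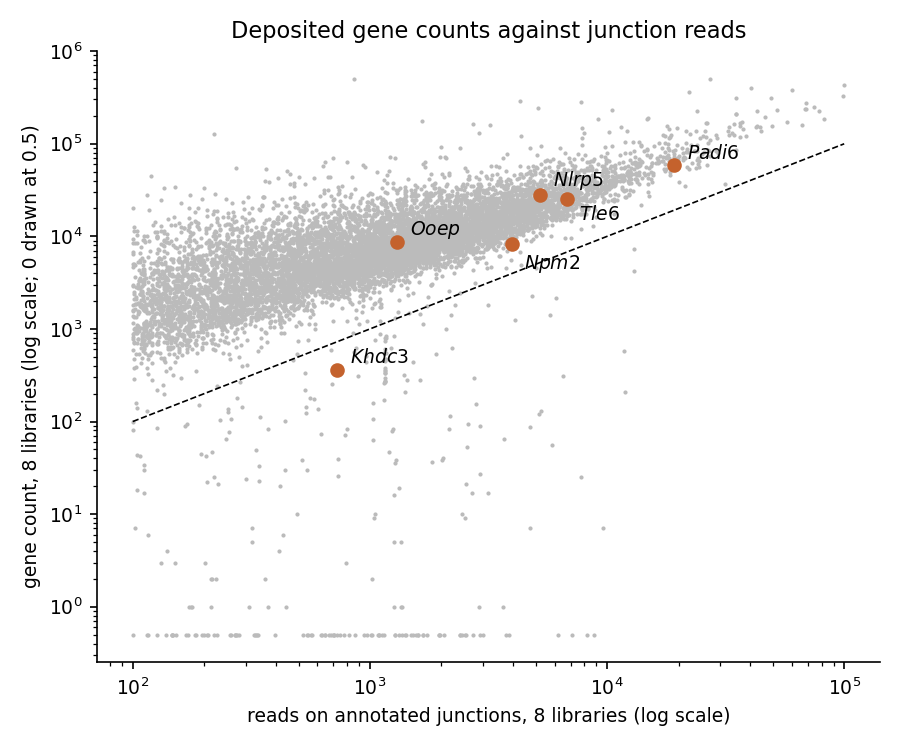
Gene counts (vertical axis) against reads on annotated splice junctions (horizontal axis), both summed over the 8 libraries and on log scales, for 9652 genes in grey and 6 of the 7 genes in orange. The dashed line marks 1 count per junction read, and *Khdc3* lies below it at 363 counts and 727 junction reads, while *Nlrp5*, *Ooep*, *Padi6*, *Tle6* and *Npm2* lie in the main cloud.

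Measured by junction reads, *Khdc3* did not separate the groups. Scaled to 1000000 junction reads per library (JPM), it measured 32.0 ± 5.01 JPM in the libraries labelled WT and 33.1 ± 4.08 in those labelled GOAT KO (SD, n = 4), a log2 ratio of 0.05 over all its junctions with an exact permutation p of 0.743. WT 1118, the lowest library in gene counts, was the highest of those labelled WT in junction reads, at 38.7 JPM compared to 26.3 to 31.8 over the 2 junctions listed in every library, and without it their ratio was 0.15 (exact permutation p = 0.343). The spread along the gene was again uneven in WT 1118, with 83 reads on the first of the 2 junctions and 17 on the second, where the other 7 libraries had 39 to 60 and 32 to 54.

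Junction reads gave the remaining genes as follows, counting only junctions listed in all 8 libraries, because single junctions were listed with no read in a library where others had 100 or more. *Padi6*, over 12 junctions and 1877 to 2690 reads per library, measured 690 ± 61.2 JPM in the libraries labelled WT and 771 ± 57.9 in those labelled GOAT KO. Its log2 ratio of 0.16 was close to the 0.17 of the gene counts, with an exact permutation p of 0.171. *Tle6*, over 11 junctions, measured 266 ± 18.9 and 306 ± 26.4, a log2 ratio of 0.20 with an exact permutation p of 0.0857, where its gene counts gave 0.07.

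For *Nlrp5* the junction ratio rested on WT 1118, and for *Ooep* it was near 0 with and without that library. *Nlrp5* measured 243 ± 47.8 and 246 ± 24.8 JPM over 15 junctions, a log2 ratio of 0.017 (exact permutation p = 0.886). WT 1118 was at 313 JPM and the other 3 libraries labelled WT at 203 to 229, and without WT 1118 the ratio was 0.16 (exact permutation p = 0.229), where the gene counts without it gave 0.25. *Ooep* measured 29.8 ± 0.839 and 29.1 ± 3.91 JPM on its single junction listed in all libraries, a log2 ratio of -0.035 (exact permutation p = 0.686), and -0.029 without WT 1118. Its other annotated junction held 89 to 127 reads in 6 libraries and was not listed in WT 1118 and GOAT KO 1140. *Npm2* measured 174 ± 19.6 and 173 ± 15.3, a log2 ratio of -0.01 (exact permutation p = 0.943), and 0.049 without WT 1118.

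The median of junction reads per intron, over all introns of 1 transcript per gene, gave a second summary of the same reads, with the libraries labelled WT first. It was 46.5 ± 5.44 and 59.0 ± 8.02 JPM for *Padi6*, 18.5 ± 3.24 and 24.6 ± 3.76 for *Tle6*, and 12.5 ± 1.78 and 15.3 ± 2.75 for *Nlrp5*. It was 28.4 ± 9.31 and 28.3 ± 8.20 for *Ooep*, 15.8 ± 2.60 and 16.3 ± 2.24 for *Khdc3*, 19.8 ± 1.69 and 20.8 ± 2.52 for *Npm2*, and 3.19 ± 3.8 and 3.91 ± 4.01 for *Zbed3*. These medians were not tested between the groups.

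**Figure D4:**
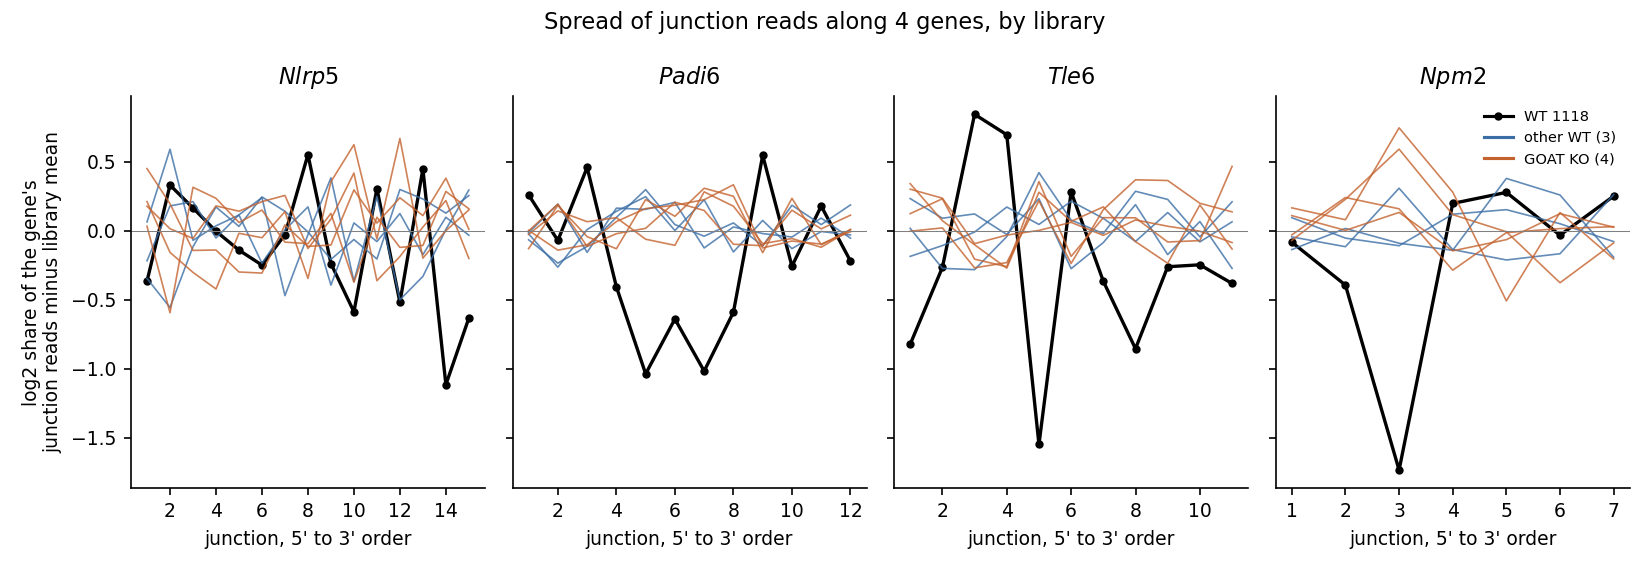
Share of a gene's junction reads on each junction, as log2 minus the mean of the 8 libraries (vertical axis), in 5′ to 3′ order (horizontal axis) for *Nlrp5*, *Padi6*, *Tle6* and *Npm2*. WT 1118 (black) leaves the other libraries in runs of junctions, and over the 45 junctions drawn its root mean square deviation is 0.594, compared to 0.155 to 0.277 in the other 7.

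The unevenness of WT 1118 held within the members. On the fifth junction of *Padi6* drawn, from its 5′ end, WT 1118 had 42 reads where the other libraries had 88 to 140. On another junction nearer the 3′ end of the same gene it had 444 reads where the others had 285 to 379. The part that this unevenness has in the gene counts of *Zbed3*, *Npm2*, *Ooep* and *Khdc3*, for which WT 1118 was the extreme library, was not tested.

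The reads of *Nlrp5* also touch a repeat within the gene. Exons 2 to 6 of the transcript ENSMUST00000015866.13 resemble one another, with 64.1% to 100% identity between pairs. Exons 3, 4 and 6, all 78 bases long and in the coding sequence, are printed from the GENCODE M21 transcripts because reads on them decide which junctions of *Nlrp5* can be told apart. Capitals mark the 57 positions at which the 3 exons carry the same base.
Exon 3 (GRCm38, chr7:23404786-23404863, plus strand): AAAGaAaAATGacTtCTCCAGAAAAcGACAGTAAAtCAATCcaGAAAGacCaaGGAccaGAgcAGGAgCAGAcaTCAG
Exon 4 (GRCm38, chr7:23407461-23407538, plus strand): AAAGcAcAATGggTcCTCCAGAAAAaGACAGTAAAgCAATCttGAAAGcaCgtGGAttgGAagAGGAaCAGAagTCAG
Exon 6 (GRCm38, chr7:23409938-23410015, plus strand): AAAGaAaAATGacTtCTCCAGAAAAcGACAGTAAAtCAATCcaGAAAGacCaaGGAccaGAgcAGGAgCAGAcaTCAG

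Exons 3 and 6 were identical over all 78 bases, whereas exons 3 and 4 were 73.1% identical. Exon 2 and exon 4 shared an unbroken run of 49 bases, which ends at the 3′ end of both. Some junctions of these exons came in pairs with like numbers of reads. Over the 8 libraries, 267 reads joined exon 2 to exon 5, outside the annotation, and 266 joined exon 4 to exon 5, an annotated junction. With reads of 50 bases, the stretch that lies in exon 2 could equally come from exon 4. Of the junctions with the identical exons, 234 reads joined exon 2 to exon 3, an annotated junction, and 262 joined exon 2 to exon 6, which skips the exons between. Likewise 32 reads joined exon 3, and 36 exon 6, to the large exon that begins after the intron end at position 23417285. The stretch of a read that lies in exon 3 could equally come from exon 6. In all, 19.6% of the junction reads inside *Nlrp5* lay on 15 junctions outside the annotation, compared to 0.0626% for *Padi6*, 0.0766% for *Ooep*, 0.227% for *Npm2*, 1.36% for *Khdc3* and 1.87% for *Tle6*.

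Some of those reads lay on an intron further upstream. An intron that starts at position 23400279, upstream of the exon with the annotated start codon and in no transcript of the annotation, was joined to exon 4 by 254 reads and to exon 2 by 72. Both are repeat exons, and whether reads were split correctly between them was not tested. The junction to exon 4 held 45, 40, 32 and 21 reads in the libraries labelled WT and 32, 31, 35 and 18 in those labelled GOAT KO, so it was present in every library. The annotated first intron, from the exon at the start of the gene to exon 2, was listed with no reads in any library. A pseudogene of this gene, *Nlrp5-ps*, had 289 counts over the 8 libraries, beside 28254 for *Nlrp5*.

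Levels can be compared between genes only per length of exon. In the libraries labelled WT, as CPM divided by kilobases of exon (RPKM), *Zbed3* (159 ± 26.1) and *Padi6* (156 ± 12.0) were the highest and did not differ beyond their spread. *Npm2* (58.3 ± 11.9) and *Tle6* (56.3 ± 4.77) followed, again within their spread of each other, then *Nlrp5* (38.7 ± 3.30) and *Ooep* (26.8 ± 2.95). *Khdc3* came last at 1.02 ± 0.266 RPKM. By the median number of junction reads per intron, *Khdc3* was at 15.8 ± 2.60 JPM in the same libraries, near *Nlrp5* (12.5 ± 1.78) and *Tle6* (18.5 ± 3.24) and below *Npm2* (19.8 ± 1.69), *Ooep* (28.4 ± 9.31) and *Padi6* (46.5 ± 5.44). *Zbed3*, whose single intron of the transcript used held few reads, was at 3.19 ± 3.8 JPM.

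*Nlrp5*, *Ooep*, *Padi6* and *Tle6* shared their extremes in part of the libraries. Scaled to each gene's own mean and SD, GOAT KO 1141 lay 1.52 to 1.72 SD above the mean for *Nlrp5*, *Ooep*, *Padi6* and *Tle6*, and WT 1119, WT 1121 and GOAT KO 1146 lay below the mean for all 4. WT 1118 parted them, at 0.49 SD for *Nlrp5* and 1.12 for *Tle6* but -1.64 for *Ooep*, and WT 1120 did so too, at -1.15 for *Nlrp5* and 0.43 for *Ooep*. *Khdc3* was at -2.05 in WT 1118 and highest, at 1.04, in GOAT KO 1146. The summed counts of 12 growing oocyte transcripts took 0.136% of all counts in GOAT KO 1141, compared to 0.114% in WT 1119 and 0.113% in WT 1121, and the highest share was 0.141% in WT 1118. The part of this share in the members' values was not tested. Without GOAT KO 1141 the log2 fold changes of *Nlrp5*, *Ooep*, *Padi6* and *Tle6* were 0.12, 0.15, 0.12 and 0.01, and edgeR's unadjusted p was 0.151 or higher for each.

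**Figure D5:**
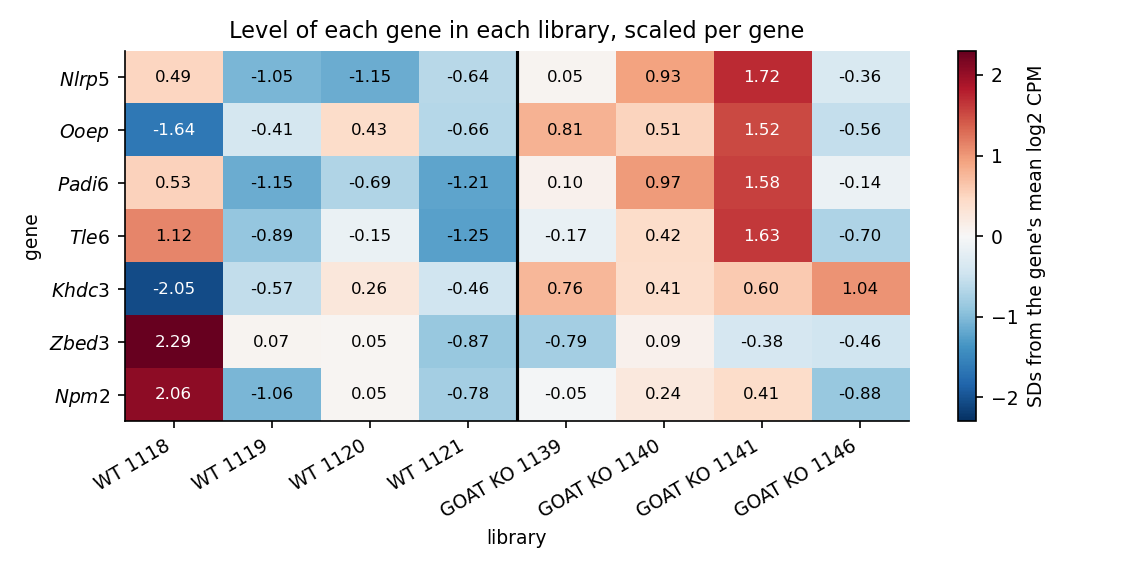
Level of the 7 genes (rows) in the 8 libraries (columns), as SDs from the gene's own mean log2 CPM, red above and blue below the mean, with a black line between the libraries labelled WT and GOAT KO. GOAT KO 1141 is high for the first 4 genes, from 1.52 to 1.72 SD, and WT 1118 runs from -2.05 SD for *Khdc3* to 2.29 SD for *Zbed3*.

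To set the genes against other oocyte transcripts, the library size was replaced by the summed counts of 12 growing oocyte genes, among them *Gdf9*, *Bmp15* and *Zp3*. On this scale the log2 fold changes were 0.13 for *Nlrp5*, 0.15 for *Ooep*, 0.12 for *Padi6*, 0.02 for *Tle6*, 0.49 for *Khdc3*, -0.18 for *Zbed3* and -0.08 for *Npm2*. None of the 7 was called, where 1.75% of all genes were, and none had an unadjusted p under 0.05 in edgeR's test, where 3.33% of all genes did. The scale moved the median of all genes to -0.06.

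The genes outside the 7 whose log2 CPM followed the mean scaled level of the members most closely over the 8 libraries were *Sdr39u1* (Pearson r = 0.971), *Zp2* (0.970), *Tdrd1* (0.965), *Gucy2e* (0.956) and *Zp3* (0.951), out of 12358 genes with at least 5 CPM. *Zp2* and *Zp3* encode zona pellucida proteins made by growing oocytes, and *Tdrd1* is a germ cell gene of the piRNA pathway. The correlations are a description, and what these genes share over the libraries was not tested.

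Other maternal-effect genes, a list of 24 that includes relatives of *Nlrp5* such as *Nlrp2*, *Nlrp4f* and *Nlrp14*, held no called gene in either direction, and their median log2 fold change was 0.02, with a range of -0.24 to 0.21. Of the 24, 2 had an unadjusted p under 0.05, *Nlrp14* (log2 fold change 0.16, edgeR, unadjusted p = 0.0210) and *Btg4* (-0.24, edgeR, unadjusted p = 0.0376). The 12 growing oocyte genes likewise held none, with a median of 0.04. Of 4 relatives from the oocyte KH domain gene family, *Dppa5a* was called, at 3.17 ± 0.582 CPM in the libraries labelled WT and 4.55 ± 0.854 in those labelled GOAT KO (log2 fold change 0.52, edgeR, unadjusted p = 0.0165). The other 3, *Khdc1a*, *Khdc1b* and *Khdc1c*, had log2 fold changes of 0.28, 0.13 and 0.28. The call of *Dppa5a* was lost on the growing oocyte scale, at 0.47. None of the 8 libraries had a read on either of its 2 introns, so spliced reads give no check of its counts. Over all genes tested, 1.67% were called.

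Of 8 transcriptional regulators of oocyte genes 2 were called, both higher in the libraries labelled GOAT KO. Over all genes tested, 0.958% were called in that direction. *Sohlh1*, a helix-loop-helix factor of primordial oocytes, measured 2.13 ± 0.562 and 3.89 ± 1.74 CPM (log2 fold change 0.87, edgeR, unadjusted p = 0.0198, adjusted p = 0.983), and its groups overlapped. It had 2, 7, 2 and 5 junction reads in the libraries labelled WT and 3, 5, 27 and 16 in those labelled GOAT KO. *Tbpl2*, an oocyte form of the TATA-binding protein, measured 1.39 ± 0.328 and 2.24 ± 0.343 CPM (0.68, edgeR, unadjusted p = 0.00853). Its groups did not overlap, a pattern that 1.64% of all genes tested showed in this direction. *Figla*, the helix-loop-helix factor that acts at E-boxes of zona pellucida genes, had 2.16 ± 0.177 and 2.96 ± 0.645 CPM, a log2 fold change of 0.46 that missed the threshold. *Nobox*, a homeobox factor of the same oocytes, had 45.6 ± 7.65 and 46.8 ± 5.36 CPM, a log2 fold change of 0.04. Of the 10 genes of oocytes in small follicles, which share 6 with the regulators, the 2 called were *Sohlh1* and *Dppa5a*, with a median of 0.16.

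Sequences upstream of the transcription starts were searched for 2 motifs that these regulators are known to read, the E-box CANNTG and the NOBOX element TAATTG or TAATTA, on both strands, with overlaps between motifs allowed. RefSeq promoters (GRCm38.p6) matched 6 of the 7 genes. The windows of *Nlrp5*, *Padi6* and *Zbed3*, each at the most upstream start, are shown because they lie wholly outside annotated exons and belong to members of both signs. Capitals mark the motifs found.
*Nlrp5* (GRCm38.p6, chr7:23385639-23385888, plus strand): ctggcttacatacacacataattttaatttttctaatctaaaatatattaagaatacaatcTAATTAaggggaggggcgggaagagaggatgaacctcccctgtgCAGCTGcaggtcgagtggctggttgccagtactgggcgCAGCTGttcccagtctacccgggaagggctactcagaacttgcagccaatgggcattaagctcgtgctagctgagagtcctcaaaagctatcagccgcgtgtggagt
*Padi6* (GRCm38.p6, chr4:140742644-140742893, minus strand): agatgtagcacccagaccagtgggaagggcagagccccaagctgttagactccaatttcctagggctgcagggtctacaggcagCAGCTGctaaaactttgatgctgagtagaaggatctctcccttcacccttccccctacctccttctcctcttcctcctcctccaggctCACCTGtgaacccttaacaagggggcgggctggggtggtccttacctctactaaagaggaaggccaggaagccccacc
*Zbed3* (GRCm38.p6, chr13:95323355-95323604, plus strand): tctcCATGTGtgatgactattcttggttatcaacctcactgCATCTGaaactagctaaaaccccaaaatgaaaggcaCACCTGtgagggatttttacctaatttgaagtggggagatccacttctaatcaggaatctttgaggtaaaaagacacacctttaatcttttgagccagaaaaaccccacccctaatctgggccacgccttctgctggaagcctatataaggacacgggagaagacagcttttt

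All 6 genes had at least 1 CANNTG in the 250 bases upstream of each RefSeq start, which 66.2% of all 32851 promoters had. *Khdc3* held 5, *Tle6* 4 and 2 at its 2 starts, *Nlrp5* 2 at each start, *Padi6* 2, *Zbed3* 3 at the start shown and 1 at each of the others, and *Ooep* 1, where 31.8% of all promoters held 2 or more. A TAATTG or TAATTA was found for *Nlrp5* at this start and for *Ooep*, and 11.3% of all promoters held one. These matches describe letters in a window and were not related to the measured levels.

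Lists of other ovarian cells are given beside the members, with the median log2 fold change of the tested genes over 8 and then 6 libraries. It was 0.18 and 0.24 for granulosa, -0.15 and -0.20 for surface epithelium, -0.31 and -0.40 for leukocyte and -0.28 and -0.34 for blood genes, where the members had 0.17 and 0.19. The medians of theca and steroidogenic (0.15 and 0.03), oviduct (0.53 and -0.005, from 3 genes) and adipose genes (3.42 and 0.08) differed more between the sets, and GOAT KO 1139 had the highest summed CPM of the oviduct (15.1) and adipose (613) lists. The theca and steroidogenic sum was highest in WT 1120 (3437) and GOAT KO 1139 (3401), both left out of the 6. Of 12 granulosa cell genes, *Inhba*, the activin A subunit, was called with 8 libraries (98.3 ± 57.2 and 190 ± 60.8 CPM, log2 fold change 0.95), and *Cyp19a1*, *Fshr*, *Inhba* and *Inhbb* with 6, at 1.39, 0.68, 1.36 and 0.57. Over all genes tested, 1.67% were called with 8 libraries and 2.39% with 6. WT 1120, left out of the 6, was the highest library labelled WT in junction reads of each of these genes. It measured 77.3 JPM for *Cyp19a1* (3.72 to 12.1 in the others labelled WT) and 37.6 for *Fshr* (19.7 to 33.5). For *Inhba* it measured 53.3 (8.89 to 22.3) and for *Inhbb* 14.3 (1.16 to 9.81). The summed CPM of the 12 granulosa cell genes was 9016 to 11210 in the libraries labelled WT and 10840 to 11610 in those labelled GOAT KO. Of 7 leukocyte genes, *Lyz2* was called lower (58.9 ± 6.11 and 41.0 ± 7.68 CPM, -0.52), with a summed CPM of 96.3 to 136 and 74.8 to 104. None was called among the genes that passed the filter on low counts in the theca and steroidogenic (7 of 8), surface epithelium (8 of 8), oviduct (3 of 7) and blood (5 of 5) lists, while on the growing oocyte scale the theca list's *Star* was called, at 1.86 (edgeR, unadjusted p = 0.0276). *Star* measured 233 CPM in GOAT KO 1139 and 8.13 to 31.9 CPM in the other 7 libraries, and its log2 fold change with the 6 libraries was -0.10. Of the 6 adipose genes 5 were called with 8 libraries (*Adipoq*, *Cfd*, *Cidec*, *Fabp4* and *Plin1*) and 1, *Plin1*, with 6. The part of these cell types in the values of the 7 genes was not tested.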

How the data were processed

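The authors cleaned 50-base single reads, mapped them with TopHat2 2.0.14 to build mm10 (GRCm38), assembled transcripts with StringTie 1.0.4 and deposited raw counts per gene symbol and counts of reads across splice junctions for each library. The tool and strand setting behind the gene counts are not given in the sources used here. The assembled transcripts and mapping summary were not used here.

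Counts were tested with edgeR 4.0.16 in R 4.3.3: TMM scaling, filterByExpr (minimum count 10, minimum total 15) and the quasi-likelihood test over all 8 libraries. The study left out 2 libraries without naming them, and a 6-library set taken from earlier work on these data is an alternative, as are RLE scaling, no scaling, no filter, DESeq2 1.42.0, limma-voom 3.58.1 and leaving out each library. The test was checked on simulated counts with 200 genes changed by 1 or 2 on the log2 scale. Changes as small as those of the 7 genes were not simulated. CPM are TMM-scaled, RPKM use GENCODE M21 exon lengths, and junction reads are scaled to 1000000 per library. Permutation tests were exact and two-sided on log2(value + 1). The genes named are the 7 members, list genes called with 8 or 6 libraries, *Gdf9*, *Bmp15*, *Zp3*, *Ddx4*, *Figla*, *Nobox*, *Mboat4* and the 5 genes most like the members. Other genes were named after their values were seen. The members and lists were chosen with earlier results of these data known.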

Additional observations from a re-analysis of the deposited data

How the results depend on the processing

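The number of genes called was 278 with the main settings and became 691 without the filter on low counts, 473 at a log2 threshold of 0.3, 3 with an adjusted p under 0.05, and 231 to 437 when 1 library was left out, the highest without WT 1120. Of the 7 genes 1 was called, and 0 on the growing oocyte scale and with an adjusted p. Leaving out 1 library gave 0 to 1, with 0 without WT 1118 or GOAT KO 1146. *Npm2* ranged from -0.12 to 0.10 when 1 library was left out, and changed sign without WT 1118 (0.10) and without GOAT KO 1146 (0.0068). In all junction reads *Nlrp5* (-0.031), *Ooep* (-0.0037) and *Zbed3* (0.28, from 0 to 25 reads per library) changed sign, and *Ooep* (-0.035) again over the junctions listed in all 8 libraries. Over these without WT 1118, *Ooep* (-0.029) and *Npm2* (0.049) had the other sign. Both of these alternatives were chosen after seeing the data. The causes were not tested. *Padi6* and *Tle6* kept their sign in all 18 alternatives. No paired analysis was possible because the 2 groups share no replicate numbers. *Mboat4* is limited by its few counts, 1 to 8 per library, and by the lack of junction reads.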
